A study of Rattus norvegicus with 12 samples.

Results

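The transcripts of 8 enzymes that turn squalene into cholesterol (Sqle, Lss, Cyp51, Tm7sf2, Msmo1, Nsdhl, Sc5d and Dhcr7) were followed in the corpus luteum (CL) of pregnant rats. They were chosen by name as steps of the pathway, with earlier results of these data known, and taken from the array by the platform's gene symbols. Other measured enzymes of these steps, given further below, did not all move with them. All 8 chosen enzymes were among the 14506 genes that could be named on the array. Each was read by 1 probe set. The CL is the ovarian gland that forms from the follicle after ovulation and keeps up progesterone during pregnancy. The study asked which luteal genes respond to estradiol (E2), by withdrawing E2 with anastrozole (AI), an oral inhibitor of aromatase, the enzyme that makes E2 from testosterone. Day 12 CL came from untreated pregnant Wistar rats. The other CL came from pregnant Wistar rats on day 16, after 4 days (96 h) of vehicle (VEH), of AI at 1 mg/kg orally each day, or of the same AI with E2 at 10 µg/day s.c. (AI+E2). Each of the 4 groups had 3 animals with 1 array each, so p-values measure the spread between animals, and the number of arrays limits the precision. AI was given to the whole animal and all groups were pregnant, so the comparisons are of rats given a drug and not of the isolated gland. The day 12 rats received no vehicle, so day and vehicle cannot be told apart in any comparison with them.

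Cholesterol is built from acetyl-CoA through mevalonate to squalene, and the oxygen-requiring steps that follow turn squalene into the sterol ring and trim it to cholesterol. In steroid-making cells such as those of the CL, cholesterol is the starting material of progesterone, and it can also be taken up from circulating lipoproteins. The genes of the pathway are a textbook case of joint control: when sterols in the endoplasmic reticulum are low, SCAP carries the transcription factor SREBP2, encoded by Srebf2, to the Golgi for cleavage, and when sterols are ample INSIG proteins hold it back.

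The 12 arrays had medians between 6.51 and 6.56 on the log2 scale, held no missing value, and no pair of arrays was identical. The tissue label was checked against cell type markers. Of 9 luteal cell markers 7 were measured, all 7 lay above the array median in every group, and the mean of their log2 values was between 11.6 and 11.9 on all arrays. None of 4 liver markers and 1 of 5 periovarian fat markers lay above the array median. The gene of aromatase itself, Cyp19a1, was not analysed here.

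Because the 8 genes are known for joint control, the 250 bases before their RefSeq starts were searched for short motifs on both strands (rat assembly GRCr8). Promoters were found for 7 of the 8 genes and for 33469 entries in all. CCAAT, the box bound by the factor NF-Y that works beside SREBP, was in 5 of the 7 promoters (Lss, Tm7sf2, Msmo1, Nsdhl and Sc5d) and in 34% of all promoters. It was in neither that of Cyp51 nor that of Dhcr7, the genes with the largest and the smallest difference between AI and VEH. GGGCGG, an Sp1 box, was in 6 of 7 and in 30.5% of all. The nuclear receptor half-site AGGTCA was in 1 of 7, Nsdhl, and in 14.1% of all. A core of the sterol regulatory element, TCACNCCAC, was in 0 of 7 and in 0.974% of all, which says only that these letters are not in these windows. The promoters of Msmo1 (chr16:29746863-29747112, plus strand) and Nsdhl (chrX:155817110-155817359, plus strand) are printed as those with the most CCAAT matches, 3 and 5, and that of Dhcr7 (chr1:208444184-208444433, plus strand) as one without any and as the gene with the smallest difference between AI and VEH. They run 5′ to 3′ on the gene's strand, and capitals mark CCAAT or, for a match on the opposite strand, ATTGG.
Msmo1: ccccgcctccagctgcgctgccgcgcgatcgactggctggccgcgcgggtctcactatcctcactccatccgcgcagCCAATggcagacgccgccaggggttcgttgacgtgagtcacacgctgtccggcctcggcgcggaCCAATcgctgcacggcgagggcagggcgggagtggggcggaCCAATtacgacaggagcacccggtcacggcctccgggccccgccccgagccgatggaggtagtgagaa
Nsdhl: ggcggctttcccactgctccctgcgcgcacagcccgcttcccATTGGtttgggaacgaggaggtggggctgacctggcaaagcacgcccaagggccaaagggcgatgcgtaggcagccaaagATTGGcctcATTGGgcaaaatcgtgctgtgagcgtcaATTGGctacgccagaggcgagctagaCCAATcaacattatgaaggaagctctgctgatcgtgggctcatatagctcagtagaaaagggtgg
Dhcr7: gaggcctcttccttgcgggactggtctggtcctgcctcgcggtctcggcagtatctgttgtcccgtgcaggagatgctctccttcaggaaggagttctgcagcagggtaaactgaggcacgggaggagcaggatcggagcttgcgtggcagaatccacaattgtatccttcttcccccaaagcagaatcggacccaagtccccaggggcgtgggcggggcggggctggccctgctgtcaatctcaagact
A match is a description of the sequence and not a bound site.

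The transcript of every enzyme of the set was higher in rats given AI than in rats given VEH. The paper reports lower luteal E2 but also higher luteal testosterone after AI, so this contrast is not one of E2 alone. It also reports lighter CL and serum progesterone that did not rise with AI, and signs of lost implantation in a pilot study. In AI against VEH on day 16, 8 of 8 transcripts were higher, and in 8 of 8 the lowest AI array lay above the highest VEH array. How many of all genes had arrays without overlap was not counted, in this or the later comparisons. Lack of overlap is therefore given as a description only. The median log2 difference was 2.30 and the range was from 0.93 for Dhcr7 to 3.21 for Cyp51, while the median over all 14506 genes was 0.013. Over all genes 857 (5.91%) were higher and 1601 (11.0%) lower in AI than in VEH at an adjusted p under 0.05 (limma with Benjamini-Hochberg adjustment, as for all adjusted p-values below). Ranked by the size of the rise among all genes, Cyp51 was at place 4, Msmo1 6, Sqle 7, Tm7sf2 9, Lss 18, Nsdhl 20, Sc5d 22 and Dhcr7 81. These were bulk samples, in which fewer cells of a type and less RNA per cell cannot be told apart.

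The first steps make the ring. Sqle encodes squalene epoxidase, which adds the oxygen that lets squalene close and is taken to be a rate-limiting step of the later pathway. Its RMA values (log2 scale) were 7.99, 7.77 and 7.95 in VEH and 10.93, 10.87 and 10.73 in AI. The groups were far apart, with a log2 difference of 2.94 ± 0.079 (SE), which is 7.67-fold (adjusted p = 2.53e-12). Lss encodes lanosterol synthase, which folds the epoxide into lanosterol. Its values were 9.07, 8.83 and 8.82 in VEH and 10.90, 10.94 and 10.71 in AI. The Lss difference was 1.94 ± 0.079 (SE) on the log2 scale, or 3.85-fold (adjusted p = 2.04e-10).

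The next steps remove methyl groups from lanosterol. Cyp51 encodes the cytochrome P450 that takes off the methyl group, and it rose most of the 8. It stood at 8.70, 8.60 and 8.82 in VEH and at 11.94, 12.01 and 11.80 in AI, a log2 difference of 3.21 ± 0.081 (SE) or 9.27-fold (adjusted p = 1.30e-12). The rat genome holds a pseudogene of Cyp51 and one of Nsdhl, and how far their probes also read these copies was not tested. Tm7sf2 encodes a reductase for the double bond that the P450 leaves behind. Its arrays read 7.22, 6.96 and 7.28 in VEH and 9.85, 9.82 and 9.74 in AI, which is a 6.27-fold difference (log2 2.65 ± 0.14 (SE), adjusted p = 4.22e-09). Msmo1 encodes the oxidase that attacks the methyl groups. With 9.04, 8.61 and 9.25 it had the widest spread of the set among VEH arrays (SD 0.33, n = 3), and AI arrays read 11.99, 12.10 and 11.94. The Msmo1 difference of 3.04 ± 0.12 (SE) was nonetheless many times that spread, at 8.24-fold (adjusted p = 9.72e-11). Nsdhl encodes the dehydrogenase that follows it in the same demethylation. Nsdhl read 8.59, 8.48 and 8.72 in VEH and 10.53, 10.65 and 10.40 in AI, a difference of 1.93 ± 0.081 (SE), or 3.81-fold (adjusted p = 2.59e-10).

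The last steps set the double bonds of the ring. Sc5d encodes a sterol desaturase, the step just before the final reduction. Its VEH arrays were the tightest of the set, at 9.27, 9.29 and 9.33 (SD 0.029, n = 3), and the AI arrays read 11.03, 11.22 and 10.93. Sc5d was thus 3.40-fold higher in AI (log2 1.76 ± 0.073 (SE), adjusted p = 2.23e-10). Dhcr7 encodes the reductase of the final step to cholesterol, and its change was the smallest. Dhcr7 stood at 10.07, 9.98 and 9.74 in VEH and at 10.93, 10.86 and 10.79 in AI. The groups still did not overlap, and the difference was 0.93 ± 0.079 (SE) or 1.91-fold (adjusted p = 6.83e-07). Its 95% interval of 0.76 to 1.10 lay below the intervals of the other 7 enzymes, of which the lowest began at 1.61 for Sc5d. Differences were set side by side here and not levels, since the array gives no level per length.

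**Figure D1:**
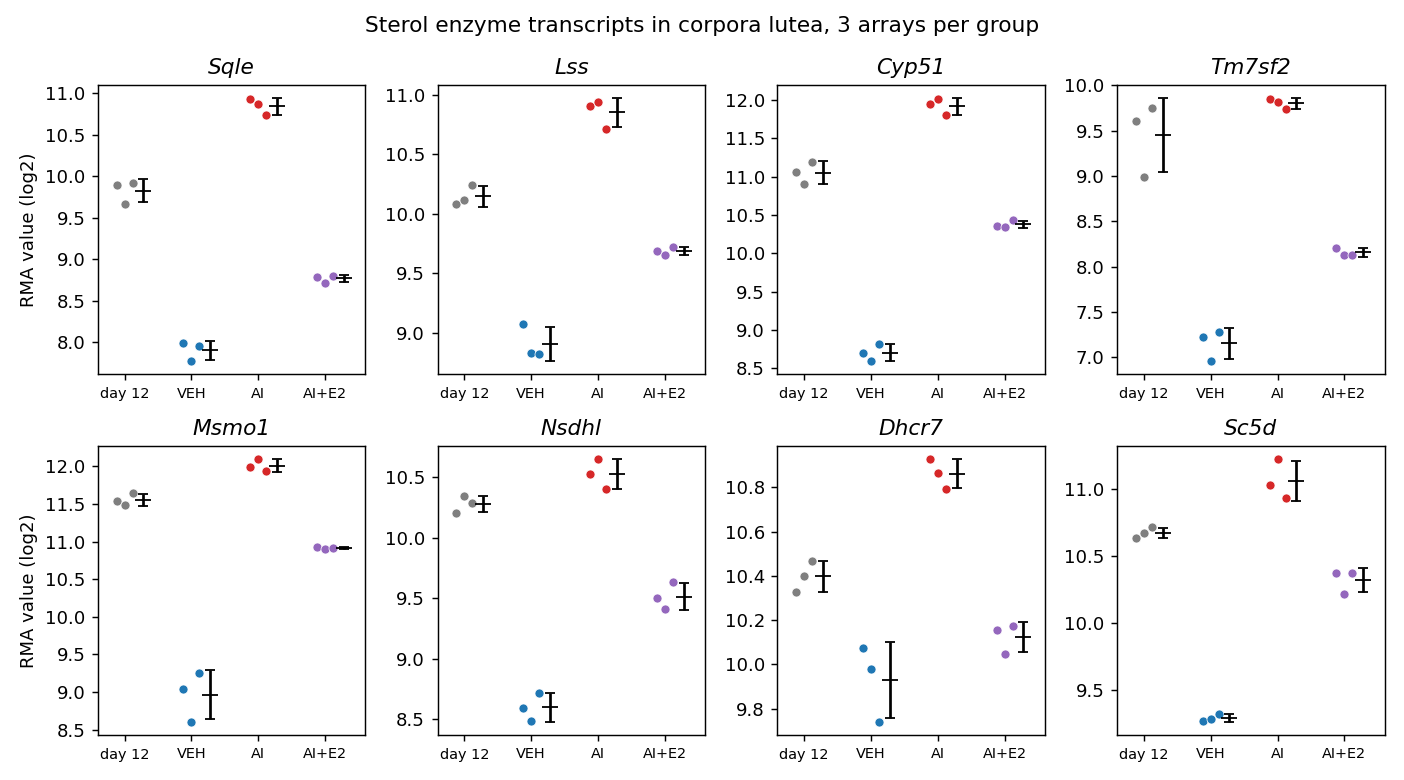
Each panel plots 1 enzyme transcript as RMA values on the log2 scale (vertical axis, scaled per panel and not starting at 0) for day 12, VEH, AI and AI+E2. Points are the 3 arrays of a group and the bar is their mean with its SD. In all 8 panels the AI arrays lie above the VEH and AI+E2 arrays, and the AI+E2 arrays lie above the VEH arrays except for Dhcr7, where they overlap.

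E2 given with AI brought the same transcripts down. In AI+E2 against AI, 8 of 8 were lower (599 genes, 4.13% of all, were lower and 1255, 8.65%, higher). No array of one group overlapped the other for any of the 8, which was not counted over all genes. The median difference of the 8 was -1.13, against -0.022 over all genes. This comparison and that of AI against VEH share the AI arrays. Sqle, whose AI+E2 arrays read 8.79, 8.72 and 8.80, was lower by the most (log2 difference -2.07 ± 0.079 (SE), adjusted p = 5.18e-10), a 4.21-fold difference. Tm7sf2 read 8.21, 8.13 and 8.13 and differed by -1.64 (adjusted p = 1.36e-06). Cyp51 read 10.36, 10.34 and 10.43 and differed by -1.54 (adjusted p = 1.02e-08). These were the largest falls with E2. Lss was next, at 9.69, 9.65 and 9.72 with a difference of -1.16 (adjusted p = 1.26e-07). Msmo1 arrays read 10.93, 10.89 and 10.92, a difference of -1.09 (adjusted p = 9.96e-06), and those of Nsdhl 9.50, 9.41 and 9.63, a difference of -1.01 (adjusted p = 5.86e-07). The smallest falls were those of the last steps. Sc5d read 10.37, 10.22 and 10.37 (-0.74, adjusted p = 4.74e-06) and Dhcr7 10.15, 10.05 and 10.17 (-0.74, adjusted p = 1.18e-05), which is 1.67-fold for each.

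The fall with E2 did not reach the VEH level for 7 of the 8 enzymes. In AI+E2 against VEH these 7 were higher with no overlap of arrays, while Dhcr7 was at 0.19 (95% interval 0.024 to 0.36, adjusted p = 0.143) with overlapping arrays. Over all genes 886 (6.11%) were higher and 1001 (6.90%) lower, and the median was -0.0064 against 0.96 for the 8 enzymes. The largest remaining differences were those of Msmo1 (1.95, adjusted p = 2.94e-08) and Cyp51 (1.67, adjusted p = 4.16e-09). Sc5d (1.02), Tm7sf2 (1.00), Nsdhl (0.92), Sqle (0.87) and Lss (0.78) were between these and Dhcr7, with adjusted p from 2.03e-07 for Sc5d to 1.92e-04 for Tm7sf2. By the paper's values, mean luteal E2 in AI+E2 rats was not below that in VEH rats. The paper found no significant difference in CL weight between them.

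The enzymes differed in how much of the AI difference remained. Taken as the AI+E2 minus VEH difference in percent of the AI minus VEH difference on the log2 scale, it was 64.0% for Msmo1 (Fieller 95% interval 57.0 to 71.3) and 58.0% for Sc5d (50.4 to 65.8). For Cyp51 it was 52.1% (47.4 to 56.8), for Nsdhl 47.4% (39.6 to 55.2), for Lss 40.2% (32.5 to 47.8) and for Tm7sf2 37.9% (27.6 to 47.9). Sqle kept 29.4% (24.2 to 34.5) and Dhcr7 20.7% (2.83 to 36.7). The intervals of neighbours in this order overlapped, while that of Msmo1 did not meet those of Sqle, Dhcr7, Lss, Tm7sf2, Nsdhl or, by a narrow margin, Cyp51. Both differences in each share rest on the same VEH arrays.

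**Figure D2:**
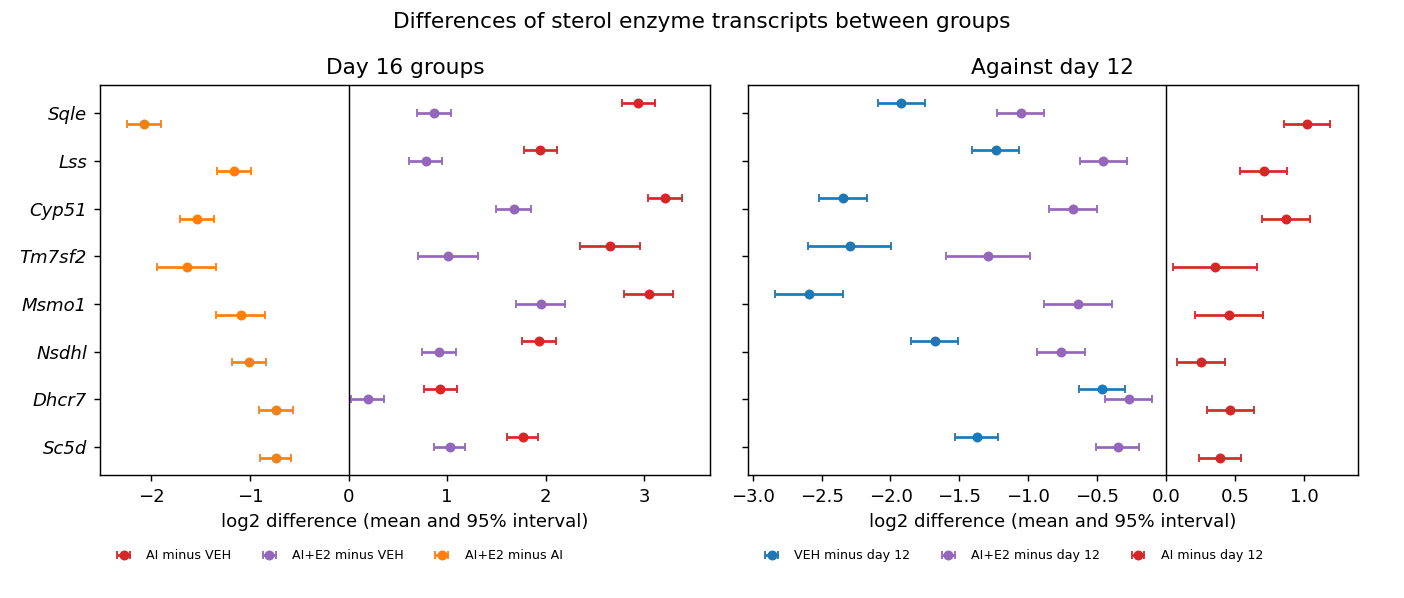
Points are log2 differences between group means for each of the 8 enzymes and bars are 95% intervals from limma; the left panel holds the 3 comparisons among day 16 groups and the right panel those with day 12. On the left AI minus VEH is above 0 and AI+E2 minus AI below 0 for all 8, and on the right VEH minus day 12 is lowest for Msmo1 (-2.59).

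The enzymes were also lower on day 16 than on day 12 without any drug. In VEH against day 12, 8 of 8 were lower (469 genes, 3.23% of all, were lower and 1002, 6.91%, higher). The median of the 8 was -1.80 against -0.018 over all genes. Their arrays did not overlap, which was not counted over all genes. Day 12 arrays of Msmo1 read 11.54, 11.48 and 11.64, and VEH was lower by 6.01-fold (log2 -2.59 ± 0.12 (SE), adjusted p = 1.73e-09). Cyp51 read 11.06, 10.90 and 11.19 on day 12, and VEH differed by -2.35 (adjusted p = 1.84e-10). Tm7sf2 was uneven on day 12, at 9.61, 8.99 and 9.75 (SD 0.40, n = 3), the widest spread of any enzyme in any group, and VEH differed by -2.30 (adjusted p = 5.28e-08). The second day 12 array, which was low for Tm7sf2, also departed most from its group over all genes (root mean square deviation 0.12). For Sqle the day 12 arrays read 9.89, 9.67 and 9.92 (difference -1.92, adjusted p = 9.42e-10) and for Nsdhl 10.21, 10.34 and 10.29 (-1.68, adjusted p = 3.39e-09). Sc5d stood at 10.63, 10.67 and 10.71 (-1.38, adjusted p = 1.10e-08) and Lss at 10.08, 10.12 and 10.24 (-1.24, adjusted p = 7.58e-08). Dhcr7, at 10.33, 10.40 and 10.47 on day 12, again had the smallest difference (-0.47, adjusted p = 0.00125). With the methods' t-test, which takes each gene's spread from its own 6 arrays, in place of limma the calls of Lss, Tm7sf2 and Dhcr7 were lost, and 57 genes were called in all.

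AI on day 16 went past the day 12 level for most of the set, by less than it went past VEH. In AI against day 12, 6 of 8 were higher (478 genes, 3.30% of all, were higher and 620, 4.27%, lower), and the median of the 8 was 0.46 against -0.0067 over all genes. Sqle was 2.03-fold higher (log2 1.02, adjusted p = 1.96e-06), Cyp51 1.82-fold (0.86, adjusted p = 1.12e-05) and Lss 1.63-fold (0.71, adjusted p = 5.18e-05). Dhcr7 (0.46, adjusted p = 0.00168), Msmo1 (0.45, adjusted p = 0.0247) and Sc5d (0.39, adjusted p = 0.00334) were higher by less than this. Tm7sf2 was at 0.35 with overlapping arrays (adjusted p = 0.183) and Nsdhl at 0.25 without overlap (adjusted p = 0.0845). The Msmo1 call was lost when all probe sets were tested (adjusted p = 0.0573), after a further quantile normalization (adjusted p = 0.0662) and without day 12 array 1 or 2 or AI array 1 or 2. Nsdhl passed after the further normalization (adjusted p = 0.0412) and without AI array 3 (adjusted p = 0.0476), and Tm7sf2 passed without day 12 array 3 (adjusted p = 0.0495). By the methods' t-test 0 of the 8 passed, with 45 genes called in all.

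AI+E2 CL lay between VEH and day 12. In AI+E2 against day 12, 8 of 8 were lower (664 genes, 4.58% of all, were lower and 1091, 7.52%, higher), with a median of -0.66 against -0.026 over all genes. Tm7sf2 (-1.29, adjusted p = 2.21e-05) and Sqle (-1.06, adjusted p = 6.12e-07) differed most. Nsdhl (-0.77), Cyp51 (-0.67), Msmo1 (-0.64), Lss (-0.46) and Sc5d (-0.35) followed, with adjusted p from 1.51e-05 for Nsdhl to 0.00438 for Sc5d. Dhcr7 was at -0.27 (adjusted p = 0.0346), a call that was lost with all probe sets tested (adjusted p = 0.0566), with arrays centred on their medians (adjusted p = 0.0716), without day 12 array 2 or 3 and without AI+E2 array 1, 2 or 3, and by the methods' t-test, which also lost Cyp51, Tm7sf2 and Sc5d. The order of the group means was VEH, AI+E2, day 12 and AI from lowest to highest for 8 of 8 enzymes, an order that 1095 of the 14506 genes showed. Neighbours in it whose difference missed the threshold after adjustment were VEH and AI+E2 for Dhcr7 and day 12 and AI for Tm7sf2, both with overlapping arrays, and day 12 and AI for Nsdhl, without overlap. The unadjusted 95% intervals of these 3 differences lay above 0 (0.024 to 0.36, 0.047 to 0.66 and 0.076 to 0.42). An exact permutation test of 3 against 3 arrays cannot go below p = 0.1, so no such test could pass for a single enzyme.

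The 8 transcripts moved together across the 12 arrays. Pearson's r between pairs of enzymes was from 0.82 to 0.99 over the 28 pairs (median 0.96), a description in which the 4 groups carry most of the spread. Dhcr7 held the lowest value, with Msmo1. After each array was set against its group mean, r was from -0.34 to 0.87 (median 0.45) and above 0 in 24 of 28 pairs. The 4 pairs below 0 each held Dhcr7 (with Cyp51, Tm7sf2, Msmo1 and Nsdhl). Within groups, day 12 array 3 and AI array 2 were above their group mean for 8 of 8 enzymes, and AI array 3 and AI+E2 array 2 for 0 of 8. All values of an array share its hybridization.

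**Figure D3:**
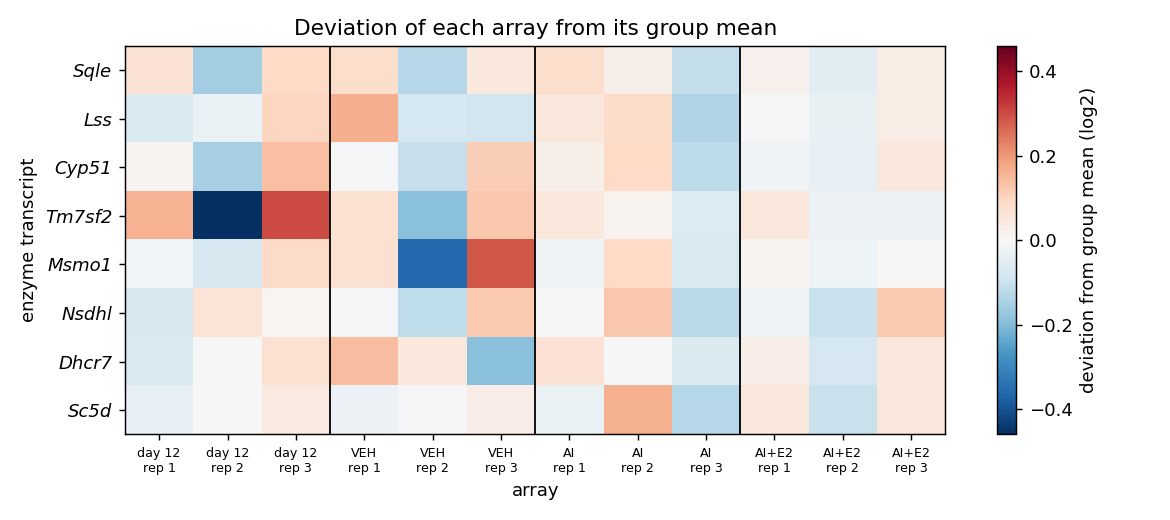
Colour is the deviation of each array (horizontal axis, 3 per group) from the mean of its group, on the log2 scale, for each enzyme (vertical axis). Whole columns of 1 colour show arrays in which the enzymes deviate together, as in AI array 3, and the darkest cells are Tm7sf2 in day 12 array 2 and Msmo1 in VEH array 2.

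Other enzymes after squalene did not all follow. Of 6 further genes of these steps 3 were measured, and the others were not analysed here. Ebp, the isomerase that moves a ring double bond between the demethylation steps and Sc5d, was higher in AI than in VEH by 2.14 (adjusted p = 2.08e-09) and below AI in AI+E2 (log2 difference -1.04, adjusted p = 8.35e-06). Ebp also differed between VEH and day 12 by -1.54 (adjusted p = 1.93e-07). Lbr, a nuclear envelope protein with the same reductase activity as Tm7sf2, was at -0.053 in AI against VEH (adjusted p = 0.605), where Tm7sf2 was at 2.65. Hsd17b7, the ketoreductase of the demethylation at which Msmo1 and Nsdhl also work, and known in the rat CL as a prolactin receptor-associated protein, was lower in AI (log2 difference -0.21, adjusted p = 0.0251). Its AI+E2 minus AI difference was 0.16 (adjusted p = 0.0919). Of the 5 listed electron donors of these enzymes, 2 were higher in AI than in VEH and 0 lower. Over all genes the shares were 5.91% and 11.0%. The higher donors were Cyb5b by 0.66 (adjusted p = 2.06e-05) and Cyb5a by 0.61 (adjusted p = 3.28e-05), both cytochromes b5. Cytochrome b5 serves Msmo1 and Sc5d, and which form does so in the CL was not tested. Por, the reductase that passes electrons to Sqle, Cyp51 and Dhcr7, was at -0.092 (adjusted p = 0.440) and was lower in AI+E2 than in AI (-0.32, adjusted p = 0.00649).

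Upstream of squalene all measured genes rose with AI and fell with E2. Of 9 listed genes from acetyl-CoA to squalene 7 were measured, and the others were not analysed here. All 7 were higher in AI than in VEH (median 1.57), beside 5.91% of all genes. AI+E2 was below AI for all 7 (log2 differences from -1.48 to -0.47), beside 4.13% of all genes. Idi1, the isomerase of the isoprene unit, differed by 3.45 between AI and VEH (adjusted p = 6.37e-10), and Fdps, which joins these units, by 2.01 (adjusted p = 2.52e-11). Acat2, at the start of the path, differed by 1.63 (adjusted p = 8.22e-11) and Mvd, the mevalonate decarboxylase, by 1.57 (adjusted p = 9.78e-09). In AI+E2 against VEH 5 of the 7 were higher and 2 lower, beside 6.11% and 6.90% of all genes. The 2 lower ones, named after their values were seen, were Fdft1, the squalene synthase that supplies Sqle (-0.39, adjusted p = 0.0149), and Mvk, the mevalonate kinase (-0.29, adjusted p = 0.00546). Among the 8 enzymes after squalene no AI+E2 mean was below VEH. In VEH against day 12, 6 of the 7 were lower and 0 higher, beside 3.23% and 6.91% of all genes.

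**Figure D4:**
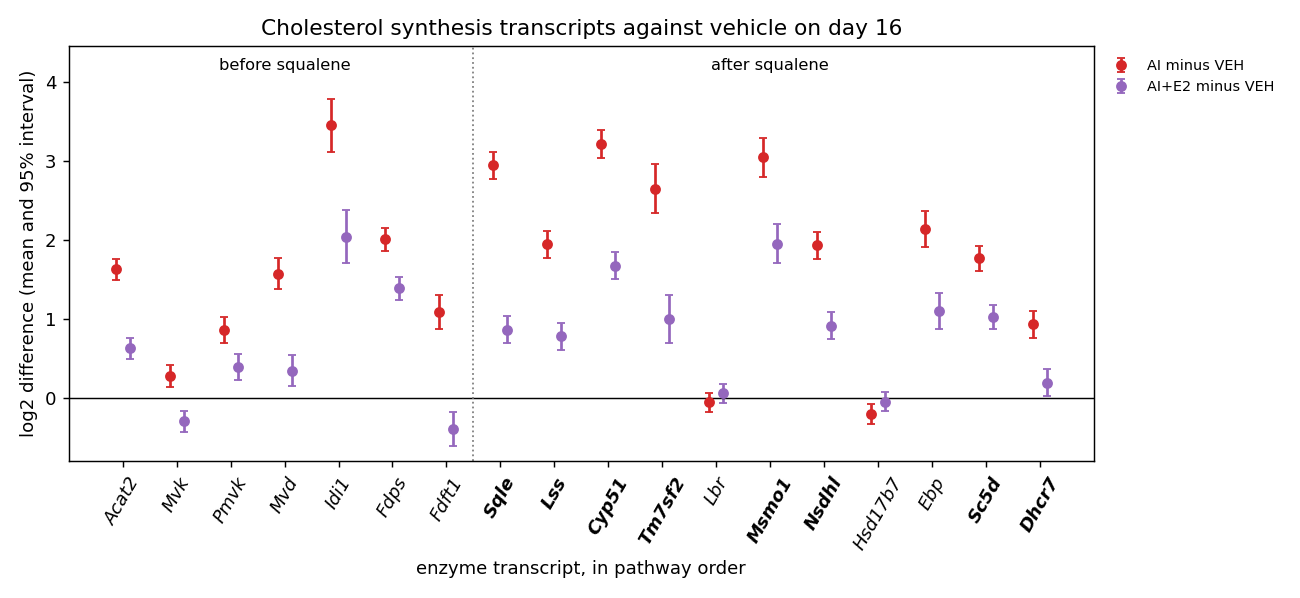
Points are log2 differences from VEH on day 16 for AI and for AI+E2, with 95% intervals, for the measured enzymes in the order of the pathway; the 8 enzymes described here are in bold and the dotted line marks squalene. AI lies above AI+E2 for each enzyme but Lbr and Hsd17b7, and AI+E2 falls below 0 with its whole interval for Mvk and Fdft1.

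Of 15 listed genes that sense and move sterols 12 were measured (the others were not analysed here), and in AI against VEH 4 were higher and 3 lower, beside 5.91% and 11.0% of all genes. Insig1, which retains SCAP and is itself a target of SREBP2, was higher by 1.94 (adjusted p = 1.74e-10). It fell with E2 (AI+E2 minus AI -1.35, adjusted p = 1.95e-08) and was below its day 12 level in VEH (-1.72, adjusted p = 1.90e-09). Srebf2 differed in the same 3 comparisons by 0.70 (adjusted p = 3.67e-07), -0.41 (adjusted p = 1.10e-04) and -0.54 (adjusted p = 1.62e-05). Stard4, a carrier of sterols in the cytosol, was higher in AI by 0.72 (adjusted p = 2.96e-05). Mbtps1, the protease that makes the first cut in SREBP2, was lower (-0.47, adjusted p = 1.73e-04).

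The genes listed from cholesterol to progesterone had a smaller median difference than the enzymes that make cholesterol. That list also holds hormone receptors and genes of cholesterol uptake and storage. Of 12 listed genes 10 were measured (Fdxr and Hsd3b1 were not analysed here), and 6 were higher and 1 lower in AI than in VEH (5.91% and 11.0% of all genes), with a median of 0.21 against 2.30 for the 8 enzymes. Fdx1, the electron carrier of the side-chain cleavage enzyme, was highest at 1.18 (adjusted p = 1.66e-08). Its AI+E2 minus AI difference was 0.058 (adjusted p = 0.672), where those of the 8 enzymes were from -2.07 to -0.74. Soat1, which esterifies cholesterol for storage, differed by 0.57 (adjusted p = 1.66e-05). Scarb1, the receptor that takes up cholesterol from high-density lipoprotein, differed by 0.30 (adjusted p = 0.00177). Prlr, the prolactin receptor, was the lower gene (-0.31, adjusted p = 0.00357).

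Markers of other cells were followed beside the enzymes. Of 10 endothelial markers 9 were measured, with 7 lower and 0 higher in AI than in VEH (median -0.44), beside 11.0% and 5.91% of all genes. In VEH against day 12, 8 of the 9 were higher and 0 lower (median 0.38), beside 6.91% and 3.23% of all genes. The enzymes differed in the opposite direction in both comparisons. In AI+E2 against AI, where all 8 enzymes fell, 1 of the 9 was higher and 0 lower, beside 8.65% and 4.13% of all genes. Set against VEH, AI+E2 had 5 lower and 0 higher (median -0.33), beside 6.90% and 6.11%. The mean of their log2 values was from 8.82 to 8.85 on VEH arrays, 8.29 to 8.52 on AI arrays, 8.47 to 8.52 on AI+E2 arrays and 8.38 to 8.57 on day 12 arrays. Of 7 smooth muscle and pericyte markers 2 were lower and 0 higher in AI than in VEH (11.0% and 5.91% of all genes). In AI+E2 against AI 0 of them were called (8.65% of all genes were higher and 4.13% lower). In VEH 5 were higher than on day 12 (6.91% of all genes). Of 10 macrophage markers 3 were higher and 0 lower in AI than in VEH (5.91% and 11.0% of all genes), the direction of the enzymes. Their mean was from 7.70 to 7.76 on VEH arrays and 7.83 to 7.92 on AI arrays. With E2 added to AI, 1 of the 10 was lower and 0 higher (4.13% and 8.65% of all genes). Of 7 fibroblast markers 1 was higher and 0 lower in AI than in VEH (5.91% and 11.0% of all genes). In AI+E2 against VEH 4 were higher and 3 lower (6.11% and 6.90% of all genes). Among follicle, lymphocyte, red blood cell, fat and liver markers, from 4 to 7 measured in each list, at most 1 per list was called in AI against VEH. Over all genes 5.91% were higher and 11.0% lower. In AI+E2 against AI, 1 of 4 red blood cell markers was lower and 0 higher. Higher in the same comparison were 2 of 6 lymphocyte and 1 of 7 follicle markers, with 0 lower. Of the fat and liver markers 0 were called in it (8.65% of all genes were higher and 4.13% lower). Of the 7 measured luteal cell markers 4 were higher and 1 lower in AI against VEH (median 0.21), beside 5.91% and 11.0% of all genes. The part of cell composition in the differences of the enzymes was not tested.

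Among all other genes, those most like the 8 enzymes over the 12 arrays were named by Pearson's r with the mean of the enzymes' standardised values. Srebf2 came first (r = 0.994), followed by Ebp (0.991), Tlcd1 (0.988), Xpnpep2 (0.987), Acat2 (0.986), Atp6v0d2 (0.982), Idi1 (0.977), Acss2 (0.974), Pank1 (0.973) and Optn (0.972). The enzymes themselves, which are part of that mean, had r from 0.931 for Dhcr7 to 0.994 for Cyp51. Of the 10 genes, Srebf2, Ebp, Acat2 and Idi1 are genes of the pathway named above, and Acss2 encodes a synthetase of acetyl-CoA. Xpnpep2, an aminopeptidase gene, differed between AI and VEH by 0.82 (adjusted p = 1.93e-07) and Tlcd1 by 1.64 (adjusted p = 1.35e-10). Pank1 differed by 1.16 (adjusted p = 1.17e-07) and Optn by 0.71 (adjusted p = 1.97e-06). Atp6v0d2, which is on none of the gene lists, differed by 3.94 (adjusted p = 1.30e-12). Its AI+E2 minus AI difference was -2.65 (adjusted p = 5.18e-10), and both were larger than for any of the 8 enzymes. The groups again carry most of the spread in these values, which rest on 12 arrays.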

How the data were processed

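CL RNA of 12 rats was hybridized to 12 Affymetrix Rat Gene 1.0 ST arrays, 3 per group, and groups were taken from the sample labels. The deposited values are log2 RMA values, which the authors made in R 2.12.2 per the methods and the submitters' processing notes. The arrays normalized together and any filter on dim probe sets are not given in the sources used here. RMA brings arrays to one distribution, so a shift shared by all genes cannot be seen. The values were used as deposited. Of 29214 probe sets, 15310 had 1 platform symbol, 323 several and 13581 none; the annotation can be old, and 15279 matched RefSeq by gene ID with 0 symbols changed. For 527 genes with several probe sets (0 of the 8 enzymes) the one with the highest mean over the 12 arrays was kept, which left 14506 genes.

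The 12 arrays were fitted with group means in limma 3.58.1 (R 4.3.3; lmFit and eBayes, 8 residual and 6.66 prior degrees of freedom), with Benjamini-Hochberg adjustment over the 14506 genes in each of 6 comparisons and calls at an adjusted p under 0.05. The script was tested on simulated data. The enzymes, gene lists and cell type markers were chosen with earlier results of these data known, and no list was tested as a set. Named genes were the 8 enzymes, up to 4 genes per list with the smallest p in AI against VEH, the 10 genes most correlated with the enzymes' mean, and list genes that went against their list or that a comparison turned on, named after their values were seen. Replicate numbers in the titles were not taken to pair the arrays. A correlation of deviations over 0.1 was found in 4 of 18 pairs with the same number and in 8 of 36 with other numbers. These correlations cannot show whether rats were handled in numbered sets. Promoters came from RefSeq (GRCr8), and plots were made in Python 3.11.15 (numpy 2.4.6, matplotlib 3.10.9). The alternatives were all probe sets, averaged probe sets per gene, filters on the lower 25% or 50% of genes by mean signal, median centring, a further quantile normalization, a trended robust prior, compared groups alone, the replicate block, the methods' t-test (Student's, equal variances) and each array left out.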

Additional observations from a re-analysis of the deposited data

How the results depend on the processing

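Over 22 alternatives (10 other settings and 12 single arrays left out) 1026 of 1056 differences of the enzymes kept their direction and their side of the threshold, 27 lost and 3 gained the call, and 0 changed sign. All 132 medians moved by less than the spread between replicates. The methods' t-test, which estimates each gene's spread from 6 arrays, called fewer genes, 663 in AI against VEH (2458 by limma), 758 in AI+E2 against AI (1854), 564 in AI+E2 against VEH (1887), 57 in VEH against day 12 (1471), 45 in AI against day 12 (1098) and 362 in AI+E2 against day 12 (1755). By it 5, 0 and 4 of the 8 enzymes were called in these last 3 comparisons, and 8, 8 and 7 in the first 3. Fitting the compared groups alone called 910 genes in VEH against day 12. With each array left out, 1817 to 2628 genes were called in AI against VEH, 1245 to 2073 in AI+E2 against AI, 1252 to 2094 in AI+E2 against VEH, 998 to 1515 in VEH against day 12, 654 to 1099 in AI against day 12 and 1123 to 1859 in AI+E2 against day 12; 1252 and 1123 were without AI+E2 array 1 and 654 without AI array 1. The enzymes called were then 8 to 8, 8 to 8, 7 to 7, 8 to 8, 5 to 7 and 7 to 8. The replicate block called 2226, 1625, 1677, 1265, 918 and 1544 genes and changed 1 call among the enzymes, that of Dhcr7 in AI+E2 against day 12 (adjusted p = 0.0521 with limma). Arrays that share a number had correlations of their deviations from -0.49 to 0.34. The cause of these changes was not tested. With 3 arrays per group, small differences such as those of Nsdhl and Tm7sf2 between AI and day 12 were called or not by the setting.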
